A study of Arabidopsis thaliana with 4 samples.

Results

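The brightest probe sets of PEG-treated Arabidopsis seedlings were chosen by their deposited signal, as those at 10000 or above on each of 4 Affymetrix arrays. Of 22746 probe sets, 86 met this level, and 77 were kept after leaving out 7 of plastid loci and those of COR47 and LHCB4.1. The probe table of the platform annotation names 1 gene for 19 of the 77, several genes for 2 and lists no gene for 56. Each array held RNA of whole seedlings, 16 days old, kept for 6 h on 40% polyethylene glycol (PEG), which withdraws water from tissue. The 2 WT and the 2 ced1 arrays are labelled as biological replicates, and seedlings of both genotypes were of the gl1-Col0 background. The ced1 mutation is known to lie in BODYGUARD, a cuticle gene, and to weaken the stress induction of NCED3, a gene of abscisic acid synthesis. Every array is of PEG-treated seedlings, so each signal is a level after PEG and none is a response to it. The comparison asks which of these abundant transcripts differ between the genotypes under osmotic stress.

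In leaves and whole seedlings, the most abundant messenger RNAs commonly come from a small set of housekeeping and photosynthesis genes. Cytosolic ribosomes are built from many proteins, each usually encoded by several near-identical gene copies. Nuclear photosynthesis genes encode proteins that are imported into the chloroplast, and metallothioneins and dehydrins are small proteins that are abundant in stressed plants. A probe set's signal also depends on how well its probes bind, so signals do not rank genes by abundance, and ordering by signal is used here only as an ordering by brightness on the array. The same signals chose the members, so their levels are a description, and the differences come from those signals too.

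The named members fell into a few roles. No gene was listed for 56 of the 77 members, against 8730 of all 22746 probe sets, so these roles do not speak for all members. Of the 19 genes, 7 encode proteins of the cytosolic ribosome, 4 act in photosynthesis, 2 in glycolysis and 1 in polyamine synthesis, 3 are linked to stress or metals, 1 makes a glucosinolate and 1 encodes a secreted protein. After PEG, the ced1 signal passed the test as higher for 4 of the 7 ribosomal genes, 3 of the 4 photosynthesis genes and the glycolytic gene GAPC2. Among all tested probe sets, 23.2% passed as higher. The glucosinolate gene AT2G25450 was lower in ced1, and the other 10 named genes did not pass the test.

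Over all 77 members, the ced1 signal passed the test as higher for 29 and as lower for 5, and 43 did not pass. A pass is a limma p below 0.05 after Benjamini-Hochberg adjustment over the 13648 probe sets tested. Among all tested probe sets, 23.2% were higher, 19.2% were lower and 42.4% were called in either direction. The share of members called in either direction, 44.2%, was thus near the background, while 37.7% of members were higher and 6.49% were lower. The rule limits these shares, since a probe set under 10000 in either genotype cannot be a member. At the level on both arrays of either genotype were 225 probe sets, leaving out plastid loci, COR47 and LHCB4.1. Of these, 45.3% were higher and 26.7% were lower, but that set favours differences, since 1 genotype is enough to enter it. The median log2 difference (ced1 minus WT) was 0.28 for the members and 0.074 for all tested probe sets. Both ced1 signals lay above both WT signals for 53 members, below them for 17, and overlapped them for 7. Among all tested probe sets 41.1% lay above and 33.6% below, 74.7% in all without overlap.

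The split depended on how the arrays are scaled to each other. Setting the arrays to equal medians shifted the median over all tested probe sets by -0.17. There 6 members were higher and 10 were lower, against 16.2% and 25.2% of all tested probe sets. The members' median was 0.21 above that of all tested probe sets under both scalings. That gap cannot change here, since equal medians shift every probe set's difference by the same amount. Without the filter on low signals 6 members were higher, against 12.2% of all probe sets. The count of higher members was 11 without an intensity trend in the variance, against 22.1% of all tested probe sets. Fewer members were higher without ced1 replicate 1 and without ced1 replicate 2, and more were lower without WT replicate 2. The same held for all tested probe sets. Of the 29 higher members, 1 was called in every one of the 12 alternatives, and of the 5 lower members, 4 were.

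**Figure D1:**
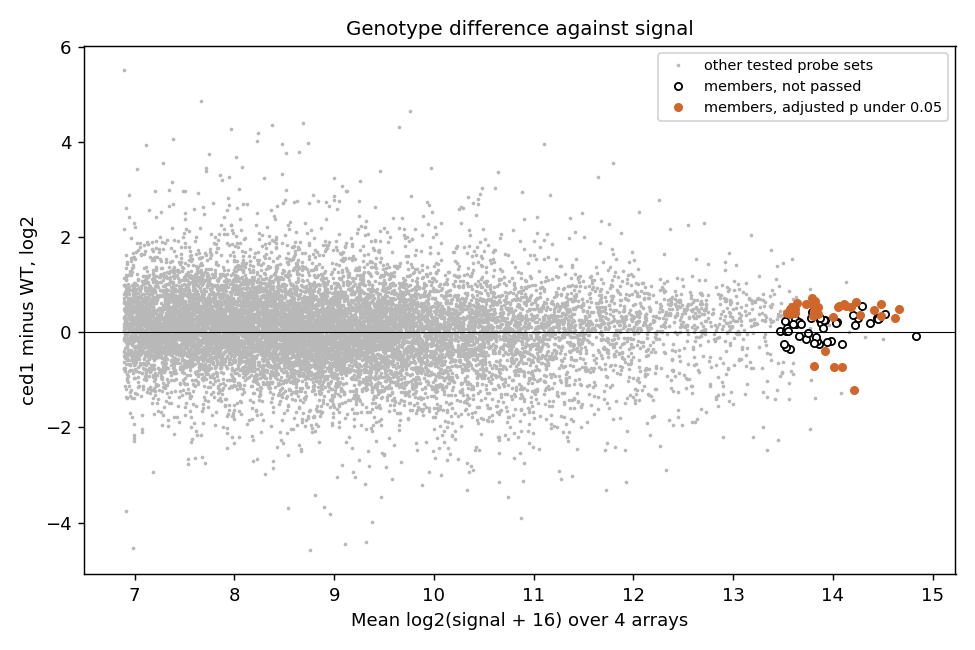
Difference between the genotypes (ced1 minus WT, log2) against the mean log2(signal + 16) over 4 arrays for each of the 13648 tested probe sets. Grey points are other probe sets, open circles are members that did not pass and filled circles are the 34 members with adjusted p under 0.05; the members lie at the right edge, between -1.22 and 0.71.

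Sizes of the differences were modest. The called higher members had mean ced1 signals between 1.24 and 1.64 times those of WT, and the called lower members between 0.430 and 0.766 times. A difference of at least 2-fold was seen for 1 of the 77 members, against 17.3% of all tested probe sets. The rule limits this, since a transcript that is low in either genotype cannot be a member: the level was reached on both WT arrays by 145 probe sets and on both ced1 arrays by 176, of which the 86 at the level on all arrays made up 59.3% and 48.9%.

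The 7 ribosomal members all had both ced1 signals above both WT signals, as did 41.1% of all tested probe sets. AT3G49910, a gene of ribosomal protein L26 of the large subunit, had signals of 10090 and 10334 in WT and of 14150 and 15415 in ced1, each pair in the order of the replicate numbers. AT3G60245, for ribosomal protein L37a, had signals of 10489 and 10824 in WT and of 13823 and 15616 in ced1. In both genes the gap between the genotypes was wider than the spread within either.

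The log2 difference was 0.53 ± 0.11 (SE; limma adjusted p = 0.00801) for AT3G49910 and 0.46 ± 0.11 (adjusted p = 0.0161) for AT3G60245. AT3G09200, a gene of the stalk protein P0, had signals of 10640 and 11306 in WT and of 13763 and 15167 in ced1, a difference of 0.40 ± 0.11 (adjusted p = 0.0265). AT1G52300, for ribosomal protein L37, had signals of 10662 and 10525 in WT and of 13353 and 14421 in ced1, a difference of 0.39 ± 0.11 (adjusted p = 0.0249). These 4 genes were called higher, though none was with equal array medians, at 0.36, 0.29, 0.23 and 0.22, or when ced1 replicate 1 or ced1 replicate 2 was left out. Without the filter or without the intensity trend, AT3G49910 passed and the other 3 did not.

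The other 3 ribosomal members did not pass. AT5G15200, for ribosomal protein S9 of the small subunit, had signals of 10606 and 12338 in WT and of 13940 and 13889 in ced1, a difference of 0.28 ± 0.12 (adjusted p = 0.0937). AT5G20290, for ribosomal protein S8, had signals of 14278 and 13974 in WT and of 16444 and 17577 in ced1, a difference of 0.27 ± 0.10 (adjusted p = 0.0772). AT1G01100, for the stalk protein P1, had signals of 11082 and 10615 in WT and of 12139 and 13402 in ced1, a difference of 0.23 ± 0.11 (adjusted p = 0.133). Their groups did not overlap either, but the differences were smaller than those of the 4 called genes.

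**Figure D2:**
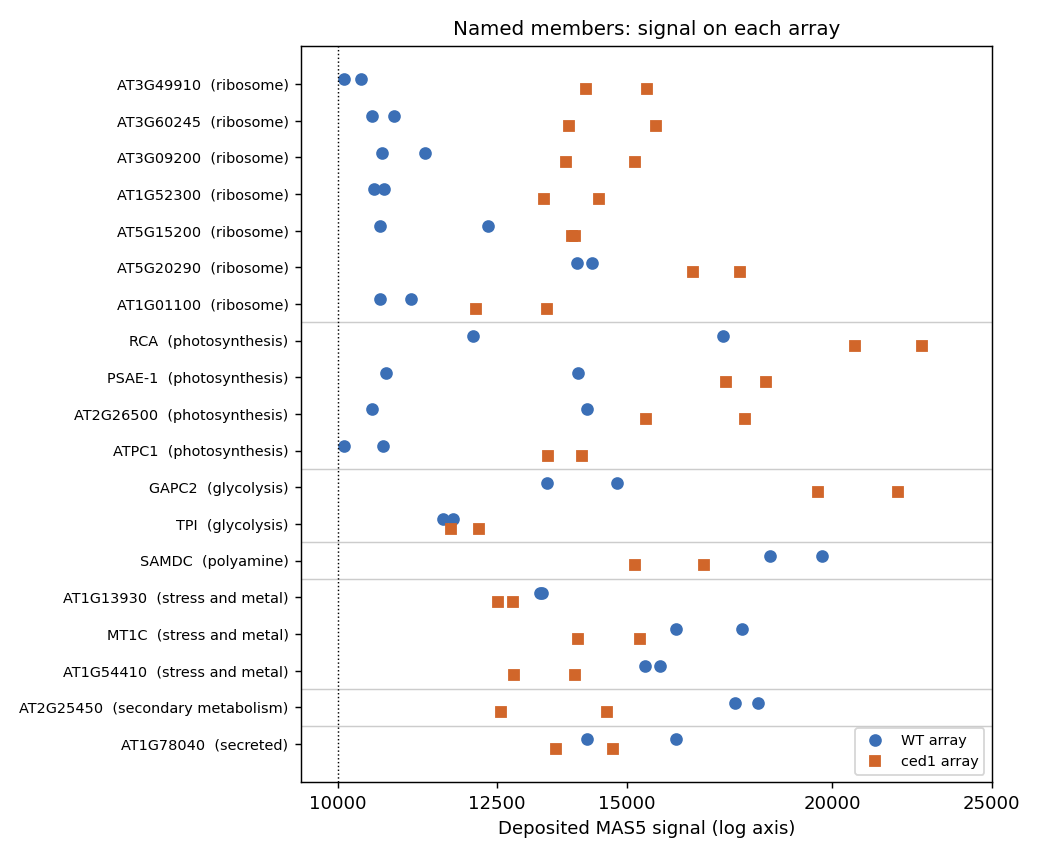
Deposited signal (log axis) of the 19 named members on each array, with WT arrays as circles, ced1 arrays as squares and the level of 10000 as a dotted line. All 7 ribosomal and all 4 photosynthesis genes have both squares to the right of both circles, while SAMDC, MT1C, AT1G54410, AT1G13930 and AT2G25450 have both to the left. Among all tested probe sets, ced1 lay above WT without overlap for 41.1% and below it for 33.6%.

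The ribosomal family was followed beyond its brightest genes. Of 235 listed genes of cytosolic ribosomal proteins, 134 had a probe set naming that gene alone, and 117 of these were tested. Besides the 7 members, 110 genes were tested, of which 87 were higher in ced1, none was lower and 23 did not pass (limma; background 23.2% higher). Their median log2 difference was 0.67, against 0.39 for the members and 0.074 for all tested probe sets. With equal array medians 61 of the 110 were higher and none was lower, against 16.2% of all tested probe sets higher and 25.2% lower. Fewer of the 110 were higher without ced1 replicate 1 or without ced1 replicate 2, as were fewer of all tested probe sets. Without WT replicate 2 a gene of the 110 passed as lower.

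Within the family, the differences were smaller at higher signal. When the 117 genes were ordered by mean signal over all arrays, the 39 lowest, with mean signals of 106.6 to 2493, had a median log2 difference of 0.87 and 30 were higher. The 39 next, up to 6207, had a median of 0.63 and 32 were higher. The 39 highest, up to 15568 and with all 7 members among them, had a median of 0.51 and 29 were higher. In the brightest group no gene reached a 2-fold difference, against 13 of the 39 lowest. How far array signals stay proportional to RNA at this brightness was not tested.

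**Figure D3:**
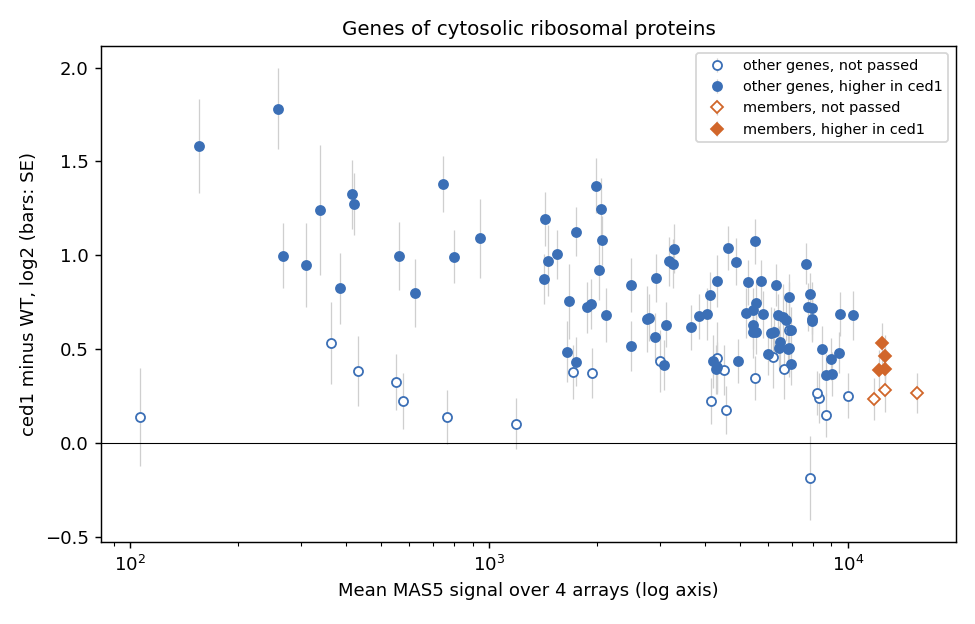
Difference between the genotypes (ced1 minus WT, log2, bars show the SE) against mean signal over 4 arrays (log axis) for 117 tested genes of cytosolic ribosomal proteins. Diamonds mark the 7 members and circles the other 110 genes, filled where adjusted p is under 0.05; 91 of the 117 genes are higher in ced1 and the members sit at the right with differences of 0.23 to 0.53.

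Other copies of the same ribosomal proteins were set beside the members. Of 11 such copies with a probe set, 9 were tested, 7 were higher in ced1 and 2 did not pass, with a median log2 difference of 0.97. The difference was larger than that of the member for 8 of the 9. For protein L37, AT1G15250 had signals of 127.7 and 89.3 in WT and of 418.6 and 395.4 in ced1, a difference of 1.78 ± 0.21, and AT3G16080 differed by 0.97 ± 0.12. For L26, AT5G67510 had signals of 1372 and 1054 in WT and of 3066 and 2692 in ced1, a difference of 1.25 ± 0.17.

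The copy with the smaller difference than its member was of S8. There AT5G59240 had overlapping signals, 81.8 and 121.1 in WT and 116.8 and 106.7 in ced1, with a difference of 0.14 ± 0.26. These signals, and those of AT1G15250 in WT, lie near the filter level of about 102.7. Whether the genotype difference is unlike between copies was not tested. Copies of 1 protein are near-identical in sequence, and how far their probe sets share signal is unknown here.

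Photosynthesis was represented by a Rubisco-activating enzyme and by subunits of the thylakoid complexes. RCA, Rubisco activase, which frees the carbon-fixing enzyme Rubisco from bound inhibitors, had signals of 12091 and 17157 in WT and of 20648 and 22675 in ced1, a difference of 0.59 ± 0.17 (limma adjusted p = 0.0293). PSAE-1, a stromal subunit of photosystem I, had signals of 10695 and 14011 in WT and of 17231 and 18223 in ced1, a difference of 0.53 ± 0.15 (adjusted p = 0.0240). ATPC1, the gamma subunit of the chloroplast ATP synthase, had signals of 10090 and 10652 in WT and of 13429 and 14070 in ced1, a difference of 0.41 ± 0.11 (adjusted p = 0.0208). These 3 were called higher.

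AT2G26500, a gene of the PetM subunit of the cytochrome b6f complex, had signals of 14175 and 10485 in WT and of 15399 and 17690 in ced1. Its difference of 0.44 ± 0.16 did not pass (adjusted p = 0.0663), but did without WT replicate 1, at 0.65, and with the replicate number as a block. The WT arrays lay apart in opposite ways, with array 2 above array 1 for RCA and PSAE-1 and below it for AT2G26500. With equal array medians none of the 3 called genes passed, at 0.42 for RCA, 0.36 for PSAE-1 and 0.24 for ATPC1, nor did they without ced1 replicate 1, without ced1 replicate 2, without the filter or without the intensity trend.

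Other genes of these pathways were set beside the members. Among 6 more tested genes of nuclear photosynthetic electron transport and antenna, 5 were higher in ced1 and none was lower (limma; background 23.2% higher). Their median was 0.78, against 0.44 for the 3 members of that list. The largest difference was that of LHCB4.2, 2.05 ± 0.48, with uneven WT signals of 2432 and 8396. The gene that did not pass was LHCB4.1, at 0.19, which is as bright as the members. Fewer of the 6 were higher without ced1 replicate 2, as were fewer of all tested probe sets. All 3 other tested genes of carbon fixation were higher, at 0.86 to 1.67. The probe table names few of these genes, 9 of the 54 listed for electron transport and antenna and 4 of the 21 for carbon fixation, so the counts do not speak for the pathways.

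Of the glycolytic members, 1 was higher in ced1 and 1 did not pass. GAPC2, a cytosolic glyceraldehyde-3-phosphate dehydrogenase, had signals of 13407 and 14796 in WT and of 19605 and 21928 in ced1, a difference of 0.56 ± 0.12 (limma adjusted p = 0.00828). It was called in 11 of the 12 alternatives, and without ced1 replicate 2 it was at 0.48 and did not pass. TPI, the cytosolic triose phosphate isomerase, had signals of 11594 and 11744 in WT and of 11724 and 12194 in ced1.

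For TPI the genotypes overlapped, with a difference of 0.035 ± 0.11 (limma adjusted p = 0.808) whose sign turned with equal array medians, at -0.13, and with quantile normalization, at -0.078. GAPC2 and TPI act in neighbouring steps of glycolysis, and whether the genotype difference is unlike between them was not tested. The other tested gene of the glycolysis list did not pass, at -0.051.

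SAMDC, S-adenosylmethionine decarboxylase, supplies the aminopropyl groups of the polyamines spermidine and spermine. Its signals were 19706 and 18328 in WT and 16709 and 15172 in ced1, without overlap. The difference of -0.26 ± 0.11 did not pass (limma adjusted p = 0.102), but it passed at -0.42 once array medians were equal and at -0.31 without WT replicate 2. AT5G15950, another gene of this enzyme, had signals of 835.9 and 885.1 in WT and of 1726 and 1649 in ced1 and was higher by 0.96 ± 0.14. AT3G25570, a further gene of this enzyme, differed by -0.29 ± 0.19, which did not pass.

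The 3 members linked to stress or metals all had both ced1 signals below both WT signals, as did 33.6% of all tested probe sets. None of the 3 passed. AT1G54410, a small dehydrin known as HIRD11, had signals of 15372 and 15703 in WT and of 12803 and 13935 in ced1, a difference of -0.22 ± 0.11 (limma adjusted p = 0.142). MT1C, a metallothionein, a small cysteine-rich protein that binds metal ions, had signals of 17620 and 16057 in WT and of 14011 and 15269 in ced1, a difference of -0.20 ± 0.11 (adjusted p = 0.186). AT1G13930, a gene linked to salt tolerance, had signals of 13279 and 13310 in WT and of 12514 and 12789 in ced1, a difference of -0.072 ± 0.10 (adjusted p = 0.605).

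The gap of AT1G54410 was small beside those of the other dehydrins. The rule limits this comparison, since a dehydrin under 10000 in ced1 cannot be a member. LTI30, with signals of 24299 and 22577 in WT and of 9304 and 8620 in ced1, was outside for this reason. Of 10 listed dehydrin genes, 6 had a named probe set and 5 were tested. The 4 tested besides AT1G54410 were all lower in ced1 (limma; background 19.2% lower), with differences between -2.67 and -1.28. COR47, which is among them, is as bright as the members and was left out by the rule. The difference of AT1G54410 passed with equal array medians, at -0.39, and with quantile normalization, at -0.30, while MT1C and AT1G13930 passed in none of the 12 alternatives.

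AT2G25450 is known as GSL-OH, an oxygenase that hydroxylates the side chain of an aliphatic glucosinolate, a defence compound of Brassicaceae. It had signals of 17442 and 18027 in WT and of 12568 and 14586 in ced1, a difference of -0.39 ± 0.12 (limma adjusted p = 0.0329). This was the named member called lower, and the call was lost without ced1 replicate 1, at -0.28, without ced1 replicate 2, at -0.50, without the filter and without the intensity trend. The other tested genes of aliphatic glucosinolate synthesis went the opposite way, with BCAT4, of the chain-elongation steps, higher by 1.16 ± 0.15 and AT2G31790, a glucosyltransferase gene, higher by 2.13 ± 0.14. Of the 21 genes listed for this pathway, 4 had a named probe set.

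AT1G78040, a gene of the family of Ole e 1 pollen allergens and extensins, had signals of 16073 and 14174 in WT and of 13585 and 14698 in ced1. The genotypes overlapped, and the difference of -0.095 ± 0.12 did not pass (limma adjusted p = 0.540).

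The 56 members without a listed gene covered signals from 10040 to 32529. Of these, 21 were higher in ced1, 4 were lower and 31 did not pass, so that 44.6% were called, near the 42.4% of all tested probe sets. Probe set 259516_at had signals of 28121 and 29943 in WT and of 12286 and 12688 in ced1, a difference of -1.22 ± 0.10 (limma adjusted p = 0.000315). It was the member with at least a 2-fold difference, and it was called lower in each of the 12 alternatives, at -1.38 to -1.17.

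Probe set 259008_at was the next lowest, with signals of 22492 and 22395 in WT and of 12721 and 14294 in ced1 and a difference of -0.73 ± 0.11. Probe set 255886_at had the highest difference, 0.71 ± 0.11, from signals of 11235 and 10886 in WT and of 17597 and 18636 in ced1. It was the higher member called in each of the 12 alternatives, at 0.54 to 0.75. Probe set 262985_s_at differed by 0.65 ± 0.11 and was called in 11 of the alternatives.

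By their suffix s_at, which marks probes that match several transcripts, 12 members may report more than 1 gene. Of these 12, 5 were higher in ced1, none was lower (limma) and 7 did not pass, so that 41.7% were called, near the background of 42.4%. The 2 members that the probe table pairs with several genes, 247644_s_at and 263821_s_at, differed by 0.30 ± 0.13 and 0.29 ± 0.11 and did not pass.

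**Figure D4:**
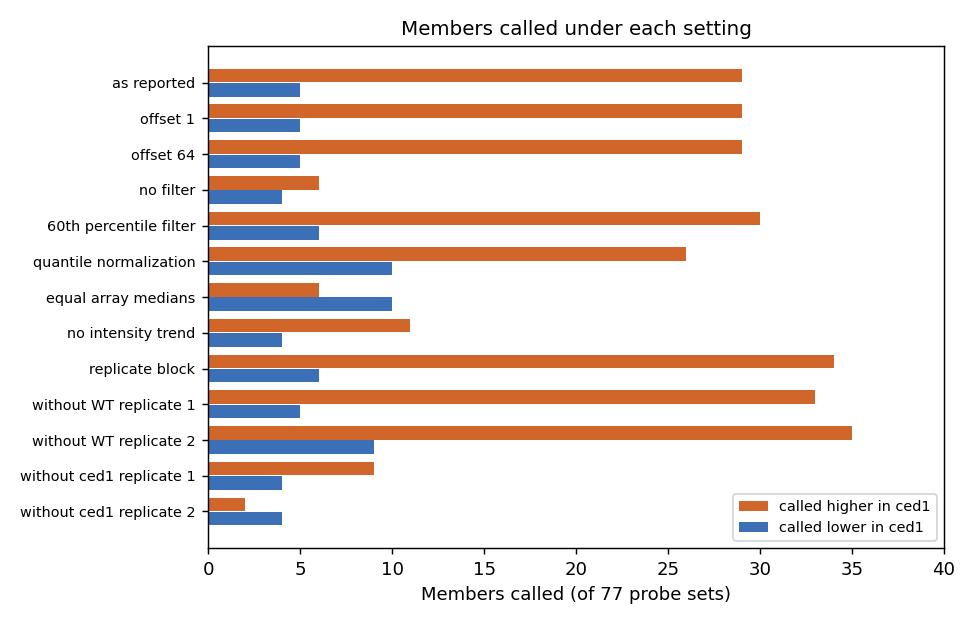
Number of the 77 members called higher (upper bar) and lower (lower bar) in ced1 as reported and under each of 12 alternative settings. Of all tested probe sets, 23.2% were higher and 19.2% lower as reported, and 16.2% and 25.2% with equal array medians. The count of higher members runs from 2 without ced1 replicate 2 to 35 without WT replicate 2, and lower members outnumber higher ones with equal array medians and without ced1 replicate 2.

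Between arrays, the members made up 7.44% and 7.71% of the summed signal in WT and 8.27% and 8.80% in ced1, from 0.339% of the probe sets. Their median signal was 14183 and 14011 in WT and 15514 and 17097 in ced1. The ced1 arrays differed from each other at this brightness: replicate 2 was above replicate 1 for 67 of the 77 members, 87.0%, against 51.5% of all tested probe sets. In WT, replicate 2 was above replicate 1 for 39 members. Leaving out either ced1 array lowered the count of higher members, as given above. The median SD between replicates was 0.075 in WT and 0.080 in ced1 on the log2 scale, against 0.17 and 0.088 over all tested probe sets.

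Members at the edge of the rule were close to genes left outside it. Among single-gene members, the lowest signals just inside were 10090 for ATPC1, 10090 for AT3G49910, 10485 for AT2G26500 and 10489 for AT3G60245, the lowest being on a WT array for each. Among single-gene probe sets just outside, the lowest signals were 9919 for AT4G01150, 9812 for AT3G15450, 9475 for AT1G09310 and 9213 for AT5G64400. Among the band of 270 probe sets with a lowest signal from 5000 to under 10000, 37.4% were higher and 16.7% were lower in ced1, with a median difference of 0.22.

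Over the arrays as a whole, the 99th percentile of signal lay between 8430 and 9158 and the highest signal between 29028 and 32529. The correlation of log2 signals, across tested probe sets, was 0.970 for the WT pair, 0.989 for the ced1 pair and 0.839 to 0.874 between genotypes. Leaf and seed markers had no named probe set. Of 6 root markers 3 had one, and their summed signal was 9788 and 9694 in WT and 6536 and 6064 in ced1. Of this sum PYK10, a myrosinase of root ER bodies, made up 9612 and 9389 in WT and 6310 and 5869 in ced1. PYK10 passed as lower, with a difference of -0.64 ± 0.11 (limma adjusted p = 0.00442; background 19.2% lower). For the other markers, EXPA18 and EXPA7, the genotypes overlapped. EXPA18 differed by -0.059 ± 0.23, which did not pass, and EXPA7 was under the filter and not tested. The part of a different share of root in the members' values was not tested, and in whole seedlings fewer cells of a type and less RNA per cell cannot be told apart.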

How the data were processed

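The authors' deposited values are 1 linear intensity per probe set and array. MAS5 is the tool named, per the submitters' processing notes, without version or scaling target, and saturation flags and detection calls were not used. Signals were analysed as log2(signal + 16) with limma 3.58.1 in R 4.3.3 (lmFit, eBayes with an intensity trend), genotype as the only factor. The 9098 probe sets under the 40th percentile of mean log2 signal, about 102.7 in signal, were left out. P-values were adjusted by Benjamini-Hochberg over the other 13648, with a threshold of 0.05. Since 2 arrays against 2 cannot go below p = 0.333 in an exact two-sided permutation test, calls rest on a spread that limma shares among probe sets, each having 2 residual degrees of freedom. Labels do not say how replicates were grown apart, so the p-values cover only how far these arrays spread, which may be technical. The number of arrays limits the precision.

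No array was a copy of another, with 36 to 62 identical signals in any pair. The probe table names 1 gene for 13513 probe sets, of which 13436 matched the TAIR10.1 gene table by gene ID. Roles and family lists come from general knowledge, since these tables give no product names. They replace a planned search by product words. Promoter and protein comparisons that had been planned were not made, because sequence tables were not used here. The members and lists were chosen with earlier results of these data known. The rule for named genes takes single-gene members: the 10 brightest, up to 15 called in each direction, up to 4 of each role with the largest difference, and the 4 on either side of the level. It leaves out AT5G15200 and AT1G01100, which were named, with all genes and probe sets that are no single-gene members, after their values were seen, apart from the 4 genes just under the level. The fit was tested on simulated data. Alternatives changed the offset, the filter, the scaling, the variance trend, a replicate block and the arrays used.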

Additional observations from a re-analysis of the deposited data

How the results depend on the processing

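With all arrays, 29 members were higher and 5 were lower in ced1, with a median log2 difference of 0.28. Higher members numbered 6 without the filter on low signals, 11 without the intensity trend and 6 with equal array medians. Of all tested probe sets, 12.2%, 22.1% and 16.2% were higher there. Lower members numbered 10 with equal array medians and 10 with quantile normalization, where 25.2% and 21.5% of all tested probe sets were lower. The members' median was 0.11 and 0.20 in these settings. The cause was not tested. Without each array in turn, the counts were 2 to 35 higher and 4 to 9 lower and the median was 0.21 to 0.33, while over all tested probe sets 1240 to 4475 were higher (3161 with all arrays) and 1316 to 3372 were lower (2626). These fits assume that the lone array varies like the other genotype. Offsets of 1 and 64 and the 60th percentile filter gave 29 or 30 higher and 5 or 6 lower members. Of all calls, 54.6% were higher as reported and 39.2% with equal array medians, against 85.3% and 37.5% of the members' calls. TPI turned to -0.078 with quantile normalization and -0.13 with equal array medians, and AT5G64400, at -0.016 as reported, ran from -0.051 to 0.019 without each array in turn, positive without WT replicate 1.

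The replicate numbers are shared by the genotypes, but the labels do not say that they mark a common batch, and deviations of same-numbered arrays correlated with r = 0.0912 across probe sets. With the replicate number as a block, 34 members were higher and 6 lower, and of all tested probe sets 3608 and 2951. The promoter and protein comparisons were not run.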
